A study of Drosophila melanogaster with 12 samples.

Results

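The odorant receptor genes of Drosophila melanogaster were taken as every gene whose FlyBase symbol is Or followed by its cytological number and a letter, together with the co-receptor gene Orco. Of 60 such genes in the counts table, 49 reached a summed count of 10 over the 12 libraries and were tested among 12433 genes, out of 17730 in all. This rule used no measured difference between groups, but the members were chosen with earlier results of these data known. RNA was taken from whole heads of 1-day-old adults, pooled from males and females, so that antennae, maxillary palps and brain were all in each sample. Counts per gene were compared between flies that express mouse TET2, a dioxygenase that oxidizes methylated cytosine, and flies that do not, to find genes that follow the protein or its mutations.

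There were 3 biological replicates in each of 4 genotypes, each of which was a separate pool of heads. mTET2-R43G heads (labelled mTet2-R43G;Tet-Gal4) carried mouse TET2 with a substitution at its N-terminus. mTET2-wt heads (mTet2-Wt;Tet-Gal4) carried the unmutated mouse protein, and mTET2-R1261C heads (mTet2-R1261C;Tet-Gal4) carried a substitution in the catalytic domain. Control heads (W1118 Control;Tet-Gal4) had the driver and no mouse gene. All 4 genotypes thus shared the dTet-Gal4 driver, which turns on a UAS transgene where the fly's own Tet gene is active. The transgenes were Flag-tagged cDNAs, integrated with the phiC31 system into a fly line with a landing site on chromosome arm 2R. Since the control has no transgene insertion, 3 things cannot be told apart against control. They are the insertion, the protein made from it, and the genetic background of the landing-site line, including the linked part of 2R. Heads were also not dissected further, and in them fewer olfactory neurons and less receptor RNA per neuron cannot be told apart.

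A fly smells with olfactory sensory neurons housed in hair-like sensilla on the antenna and the maxillary palp. Most of these neurons express a single tuning receptor of the Or family, which sets the odours that the neuron answers to, together with Orco, with which it forms an odour-gated cation channel. Antennal basiconic sensilla respond mainly to food odours, trichoid sensilla to pheromones and other fly odours, and palp sensilla to food odours close to the mouth. Some Or genes are known mainly from the olfactory organ of the larva. The members were grouped by these organs and sensilla from general knowledge of the family, and the classes of Or63a, Or45b and Or13a are uncertain.

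Between 15894383 and 19434046 read pairs were counted on genes per library, and the 49 members together held 0.0114% of them. Photoreceptor markers were abundant in every library (summed level of 7 genes 23192 to 32366 CPM, counts scaled to library size with TMM), as in a head. Orco was counted in all 12 libraries. Levels of 12 midgut digestive enzymes summed to 1729 CPM in replicate 3 of mTET2-wt and to at most 97.5 CPM in the other libraries. Yolk protein transcripts, which mark female fat body, also varied between pools, from 9203 to 45955 CPM for 3 genes together. The part of these differences in the values below was not tested.

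Orco was by far the most abundant member and alone took 50.9% of the members' counts. Its mean count was 1016 read pairs per library, against a median of 15.4 for the other 48 members (range of their means 1.08 to 122). A mean of at least 10 counts per library was reached by 31 members, 18 stayed under it, and 8 had no count in at least 1 library. The spread between replicates was wide, with a median biological coefficient of variation of 28.3% over the 48 receptors and 13.6% over all genes tested.

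Per kb of gene body, Orco was at a level of 11.1 CPM per kb (range over the 12 libraries 9.43 to 12.9), which is 2.82 times the next receptor. That was Or43b, a fruit-odour receptor of small basiconic sensilla, at 3.92 CPM per kb. Or59b, the methyl acetate receptor of large basiconic sensilla, followed at 2.81, Or92a, a diacetyl receptor also of large basiconic sensilla, at 2.56, and Or63a, placed here in the larval class, at 1.88 CPM per kb. Or42b (1.29, neighbour of the Or92a neuron in its sensillum), Or47b (1.15, a trichoid receptor) and Or22b (1.07) were the other receptors at 1 CPM per kb or more.

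At the other end, 5 members were under 0.1 CPM per kb. Or45a (0.0175), Or22c (0.0340) and Or24a (0.0652) are known from the larva, Or19a (0.0546) is a trichoid receptor, and Or98b (0.0695) was not assigned to an organ. The levels of the receptors without Orco spanned a range of 225-fold from Or43b to Or45a. They formed no steps: at all 47 places in the order, the range of a receptor over the 12 libraries overlapped that of the next lower one. With exon length in place of gene body length the same 5 genes came first and the same 5 last, while the lead of Orco grew to 6.06 times.

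**Figure D1:**
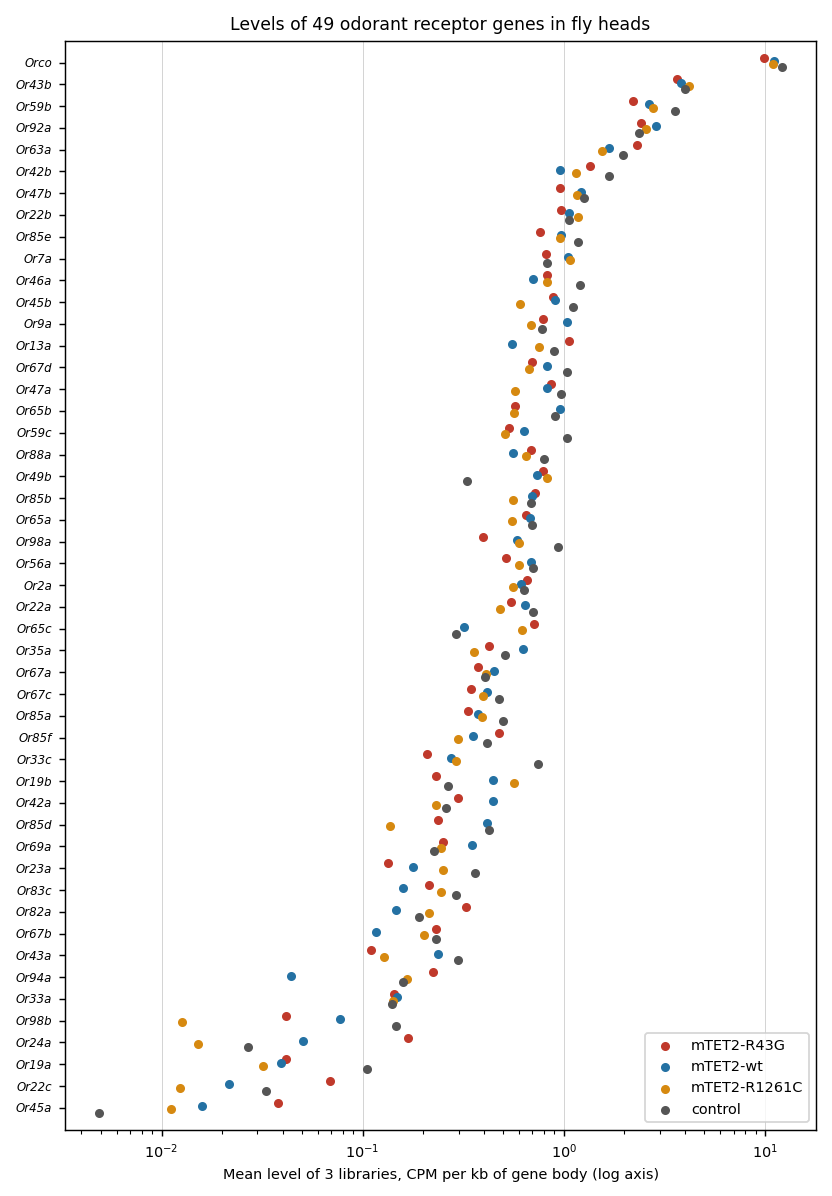
Mean level of each of the 49 odorant receptor genes in CPM per kb of gene body (horizontal, log axis), in order of the mean over 12 libraries, with a point for each of the 4 genotypes (n = 3 libraries each). Orco stands at the top at 11.1 CPM per kb, 7 receptors lie at 1 CPM per kb or more, and 5 lie under 0.1.

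Receptors that share a neuron or a sensillum differed in level. Or85e and Or33c, which are made in the same palp neuron, had 0.967 and 0.379 CPM per kb. Or65a, Or65b and Or65c, which share a trichoid neuron, were closer, at 0.644, 0.749 and 0.485 CPM per kb. Or56a, the geosmin receptor, and Or33a, which is made in the same neuron, had 0.629 and 0.143 CPM per kb. Or22a and Or22b, paralogues made in the same neuron, had 0.592 and 1.07 CPM per kb, and Or19a and Or19b had 0.0546 and 0.378. Or19a and Or19b are near-identical copies, and read pairs that mapped to both copies were left out of the counts, so that their levels are uncertain.

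The 11 receptors under the minimum held from 0 to 8 counts over all libraries. Or85c had 8, Or49a and Or74a had 4 each, Or59a and Or83a had 2 each, and Or30a, Or33b and Or94b had 1 each. Or10a, Or1a and Or71a had 0 in every library. Each of these last lies wholly inside another gene on the same strand (Gr10a, CG3777 and Plp), where read pairs are left out of the counting as ambiguous, so that their 0 is not a measure of their expression. Or71a and Or10a are receptors of the palp and of large basiconic sensilla of the antenna. Of the 11, 7 were larval genes, so that 6 of 13 larval receptors were members, against 7 of 8 of the large basiconic, 14 of 16 of the small basiconic, 13 of 13 of the trichoid or intermediate and 6 of 7 of the palp receptors.

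Summed over the 49 members, levels were 106 ± 6.87 CPM in mTET2-R43G, 113 ± 14.1 in mTET2-wt, 110 ± 4.32 in mTET2-R1261C and 126 ± 8.62 in control (SD, n = 3 each). Without Orco the sums were 53.8 ± 4.72 CPM in mTET2-R43G, 55.1 ± 5.99 in mTET2-wt and 52.7 ± 2.49 in mTET2-R1261C, against 62.0 ± 6.45 in control. Sums over the members are given without a test.

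Or49b, a receptor for methylphenols in small basiconic sensilla (2R, 12842665 to 12844704, plus strand, dm6), was the one member called in any comparison. It was more abundant in mTET2 heads. Its read pairs numbered 35, 30 and 16 in mTET2-R43G, 24, 28 and 32 in mTET2-wt and 28, 31 and 26 in mTET2-R1261C, against 7, 18 and 12 in control. In CPM the levels were 2.12, 1.67 and 1.04 in mTET2-R43G, 1.39, 1.46 and 1.66 in mTET2-wt and 1.84, 1.87 and 1.36 in mTET2-R1261C, against 0.414, 0.927 and 0.692 in control. All 9 mTET2 libraries lay above all 3 control libraries, although replicate 3 of mTET2-R43G came close to replicate 2 of control.

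For the mean of the 3 mTET2 groups over control, the log2 fold change of Or49b was 1.22 (SE 0.29, 95% interval 0.57 to 1.86, adjusted p = 0.0415, edgeR's quasi-likelihood F test, Benjamini-Hochberg adjusted). It was then the 1 of 49 members with an adjusted p of at most 0.05 and a log2 fold change of at least 1 in size, a rule that 1.34% of all genes met in that comparison. At an unadjusted p under 0.05 there were 11 members, 10 of them under 0, beside 18.8% of all genes. Of the 12433 genes tested, 1273 had such a p with a fold change under 0 and 1063 with one above 0. The call was close to the threshold: when each of the 12 libraries was left out in turn it was kept in 2 fits, those without replicate 3 of mTET2-R43G and without replicate 3 of mTET2-R1261C, with adjusted p from 0.0246 to 0.133. The call was also lost when the replicate number was added to the fit as a block. Of 17 alternative fits in all, 6 kept it. Besides the 2 named, these were DESeq2 (adjusted p = 0.0128), RLE scaling (0.039), no low-count filter (0.0449) and the filterByExpr function of edgeR (0.0307). The log2 fold change was 0.97 without replicate 1 of control and 1.52 without replicate 2 of control. Without replicate 3 of mTET2-wt, the library with the midgut transcripts, it was 1.19 (adjusted p = 0.0654). No annotated gene overlaps Or49b. Levels of a neighbouring receptor in its sensillum were not set beside those of Or49b.

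Group by group, the log2 fold change of Or49b over control was 1.23 in mTET2-R43G (SE 0.34, adjusted p = 0.0651), 1.13 in mTET2-wt (SE 0.34, adjusted p = 0.129) and 1.29 in mTET2-R1261C (SE 0.34, adjusted p = 0.104), none of which passed. Between mTET2 groups its log2 fold change was 0.10 for mTET2-R43G over mTET2-wt (95% interval -0.61 to 0.80) and 0.16 for mTET2-R1261C over mTET2-wt (95% interval -0.54 to 0.86).

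**Figure D2:**
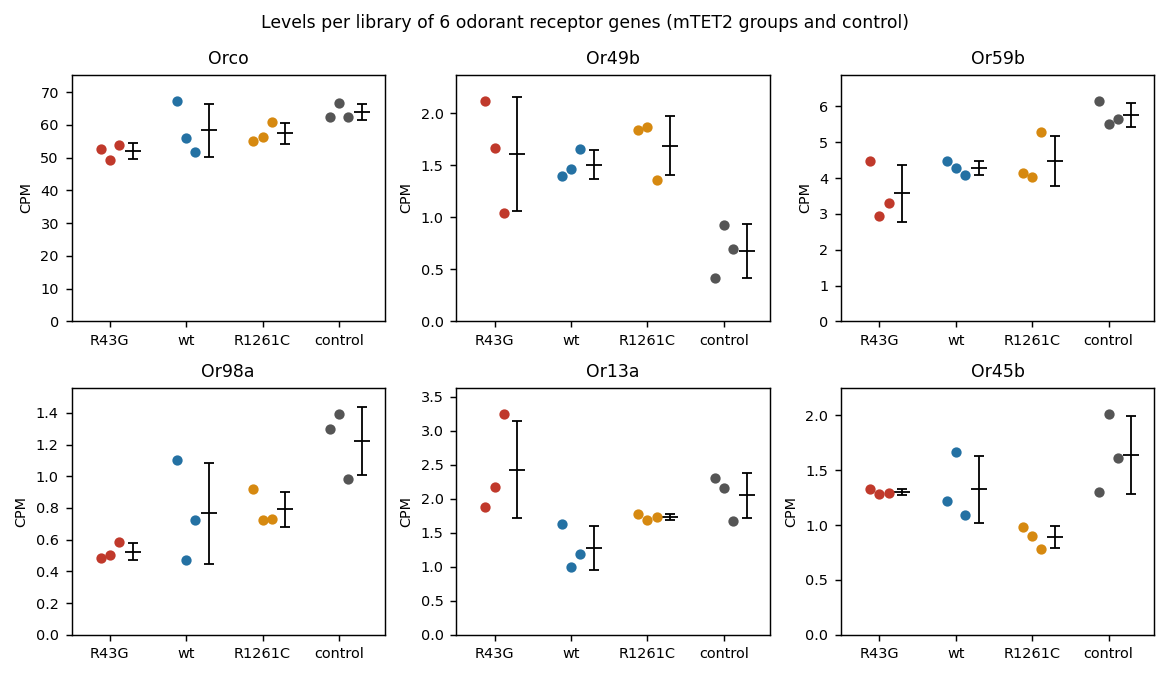
Level in CPM (vertical, from 0) of Orco, Or49b, Or59b, Or98a, Or13a and Or45b in each library (coloured points) of mTET2-R43G, mTET2-wt, mTET2-R1261C and control, with the mean and SD of each group (black, n = 3). All 9 mTET2 points of Or49b lie above the control points, and all 9 of Or59b lie below them.

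Or59b (2R, 23470165 to 23471775, minus strand, dm6) had the reverse order. It had 74, 53 and 51 read pairs in mTET2-R43G, 77, 82 and 79 in mTET2-wt and 63, 67 and 101 in mTET2-R1261C, against 104, 107 and 98 in control. Scaled to CPM, these were 4.47, 2.95 and 3.31 in mTET2-R43G, 4.47, 4.27 and 4.10 in mTET2-wt and 4.13, 4.03 and 5.28 in mTET2-R1261C, against 6.15, 5.51 and 5.65 in control. All 9 mTET2 libraries were below all 3 control libraries. Or59b and Or49b were the only members with such a separation, 1 in each direction, where 3.43% and 2.35% of all genes were so placed.

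Or59b fell in mTET2-R43G heads relative to control by 0.69 on the log2 scale (SE 0.17, adjusted p = 0.0450). It was the only member there with an adjusted p of at most 0.05, which 4.33% of all genes reached. Of 18 alternative fits, 6 kept it at or under 0.05, with adjusted p from 0.0210 to 0.157. Among the 12 fits that leave out a library, those were the 3 without replicate 1 of mTET2-R43G, replicate 2 of mTET2-R1261C or replicate 3 of mTET2-R1261C. Its log2 fold change was -0.43 in mTET2-wt (SE 0.17, adjusted p = 0.245), -0.36 in mTET2-R1261C (SE 0.17, adjusted p = 0.435) and -0.49 for the mean of the 3 groups (SE 0.13, adjusted p = 0.0669). Or59b lies wholly inside CG43795 on the opposite strand. Counting was by strand, and the log2 fold change of CG43795 was 0.07 for mTET2-R43G over control (SE 0.08). Or85a, the receptor of the neighbouring neuron in the same sensillum, was at 0.436 ± 0.105 CPM in mTET2-R43G, 0.488 ± 0.0843 in mTET2-wt and 0.516 ± 0.177 in mTET2-R1261C, against 0.650 ± 0.110 in control, with no test passed.

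Orco (3R, 5407183 to 5412406, minus strand, dm6) was the member measured most precisely. Its levels were 52.7, 49.2 and 54.0 CPM in mTET2-R43G, 67.3, 55.9 and 51.7 in mTET2-wt and 55.0, 56.2 and 61.0 in mTET2-R1261C, against 62.5, 66.6 and 62.5 in control. mTET2-R43G and mTET2-R1261C lay wholly below control, and mTET2-wt overlapped it through its replicate 1. The log2 fold change over control was -0.30 in mTET2-R43G (SE 0.09, 95% interval -0.50 to -0.09, adjusted p = 0.0911). It was -0.13 in mTET2-wt (95% interval -0.34 to 0.07) and -0.15 in mTET2-R1261C (95% interval -0.36 to 0.05), and for the mean of the groups it was -0.19 (adjusted p = 0.191). A halving or doubling of Orco was outside each of these intervals.

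Against control, the rule of adjusted p and fold change together called 0 of 49 members in mTET2-R43G, where 1.34% of all genes were called, 0 in mTET2-wt, where 1.2% were, and 0 in mTET2-R1261C, where 0.748% were. At an unadjusted p under 0.05 there were 8 members in mTET2-R43G (23% of all genes), 5 in mTET2-wt (14.7%) and 7 in mTET2-R1261C (11.8%). With DESeq2 the calls were 1 in mTET2-R43G, which was Or49b, and 0 in both other groups. DESeq2 left 7 members without an adjusted p in the first of these comparisons.

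Most members had a fold change under 0, with small medians. The median log2 fold change over the 49 members was -0.20 in mTET2-R43G, -0.21 in mTET2-wt and -0.31 in mTET2-R1261C over control. Over all genes tested it was -0.015 in mTET2-R43G, -0.0033 in mTET2-wt and -0.0051 in mTET2-R1261C. The members' median moved with single libraries. In mTET2-R43G it was -0.35 without its replicate 3, -0.30 without control replicate 3 and -0.068 without control replicate 2. In mTET2-wt it was -0.10 without its replicate 2, -0.079 without its replicate 3 and -0.10 without control replicate 2. Values under 0 were found for 32 of 49 members in mTET2-R43G (51.9% of all genes), 34 in mTET2-wt (50.6%), 38 in mTET2-R1261C (51.2%) and 37 for the mean of the 3 groups (51.6%), whose median was -0.25 (-0.16 without control replicate 2), beside -0.0090 over all genes. In 24 members all 3 groups were under 0, in 5 all were above, and in 20 the signs were mixed. This count was not made over all genes, so that it has no reference. The 3 comparisons share their control libraries, so that these counts are not independent of each other.

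Non-overlap of the 3 mTET2-R43G libraries with the 3 control libraries was found for 11 members below and 3 above, where 13.7% and 12.9% of all genes were so placed. In mTET2-wt there were 5 below and 2 above (11.7% in either direction), and in mTET2-R1261C there were 13 below and 1 above (8.48% and 6.87%).

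**Figure D3:**
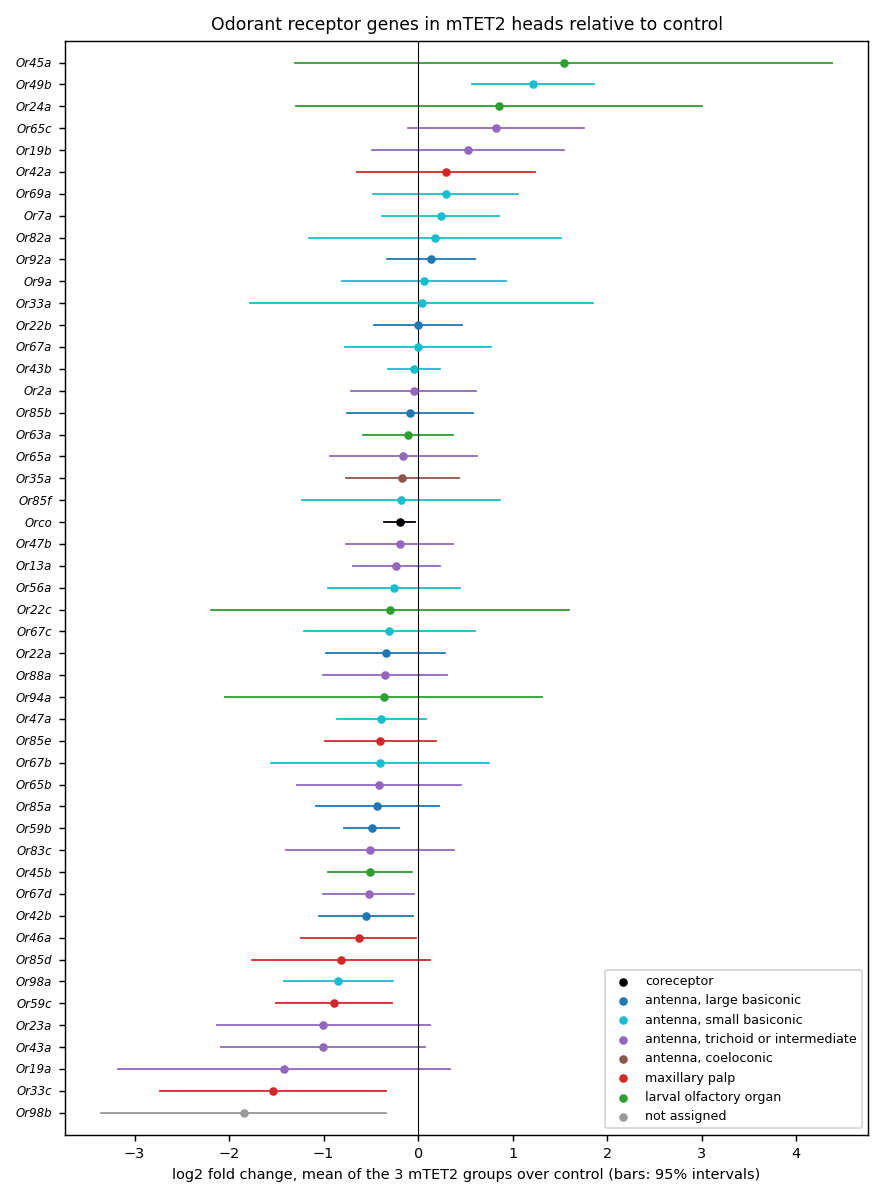
Log2 fold change of the mean of the 3 mTET2 groups over control for each of the 49 odorant receptor genes (horizontal) with its 95% interval, coloured by organ and sensillum class. Of the 49 points 37 lie under 0, and Or49b at 1.22 was the 1 gene that passed the test.

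Receptors of the maxillary palp and of the large basiconic sensilla had summed levels that lay below control in every mTET2 library. Summed over 6 genes, the palp receptors had 3.51, 5.40 and 7.06 CPM in mTET2-R43G, 7.08, 5.84 and 5.08 in mTET2-wt and 5.31, 5.42 and 5.65 in mTET2-R1261C, against 8.81, 8.19 and 8.94 in control. All 9 mTET2 libraries were below all 3 control libraries. In read pairs, the mTET2 libraries had 58 to 122 and the control libraries 149 to 159, and the same separation was found with RLE scaling and with library size alone. Relative to Orco, the palp receptors were at 6.65% to 13.1% in mTET2-R43G, 9.83% to 10.5% in mTET2-wt and 9.26% to 9.67% in mTET2-R1261C, against 12.3% to 14.3% in control. No test was made of this sum.

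Within the palp group, 5 of the 6 genes had a log2 fold change under 0 for the mean of the mTET2 groups, with a median of -0.72, and none passed the test. Or33c was at -1.53 (SE 0.55, adjusted p = 0.153) and Or59c at -0.89 (SE 0.28, adjusted p = 0.112). Or46a was at -0.63 (SE 0.28, adjusted p = 0.244), and Or42a was the gene above 0. Or46a and Or59c each lie wholly inside a gene on the opposite strand. For Or46a that is asRNA:CR43467, at -0.84 in the same comparison (SE 0.45, adjusted p = 0.346). For Or59c it is CG43795, at 0.06 (SE 0.07). Or59c had 0.544, 0.890 and 0.907 CPM in mTET2-R43G, 1.22, 0.730 and 0.830 in mTET2-wt and 1.11, 0.542 and 0.575 in mTET2-R1261C, against 1.72, 1.65 and 1.15 in control. Its replicate 3 in control was under replicate 1 of mTET2-wt. The separation of the sum rested in part on Or33c: without it 8 of 9 mTET2 libraries stayed below control, the highest at 6.999 CPM against 6.904 CPM in the lowest control library. Without any other single palp gene all 9 stayed below.

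Large basiconic receptors, which answer to food odours, had sums over 7 genes of 12.6, 10.9 and 14.1 CPM in mTET2-R43G, 14.4, 13.9 and 12.8 in mTET2-wt and 14.2, 12.5 and 13.8 in mTET2-R1261C, against 15.8, 16.2 and 14.9 in control. All 9 mTET2 libraries were again below all 3 control libraries, with a narrow gap. That order rested on Or59b and Or42b. Without Or59b 5 of 9 mTET2 libraries were below control and without Or42b 6 of 9, while all 9 stayed below without any other single gene of the class.

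The other classes of more than 1 assigned gene overlapped between mTET2 and control heads. Small basiconic receptors, 14 genes, summed to 17.2 ± 1.64 CPM in mTET2-R43G, 18.5 ± 1.70 in mTET2-wt and 18.0 ± 0.863 in mTET2-R1261C, against 17.9 ± 4.27 in control. The 13 trichoid or intermediate receptors summed to 10.7 ± 1.84 CPM in mTET2-R43G, 10.5 ± 1.90 in mTET2-wt and 10.5 ± 1.71 in mTET2-R1261C, against 12.3 ± 2.35 in control. Larval receptors, 6 genes, were at 7.39 ± 1.75 CPM in mTET2-R43G, 5.39 ± 1.08 in mTET2-wt and 4.69 ± 0.615 in mTET2-R1261C, against 6.43 ± 0.97 in control (SD, n = 3 each). The larval sums in mTET2-R1261C, 4.07, 5.30 and 4.71 CPM, lay wholly below those in control, 7.51, 5.62 and 6.17 CPM. Those in mTET2-R43G and mTET2-wt overlapped control.

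**Figure D4:**
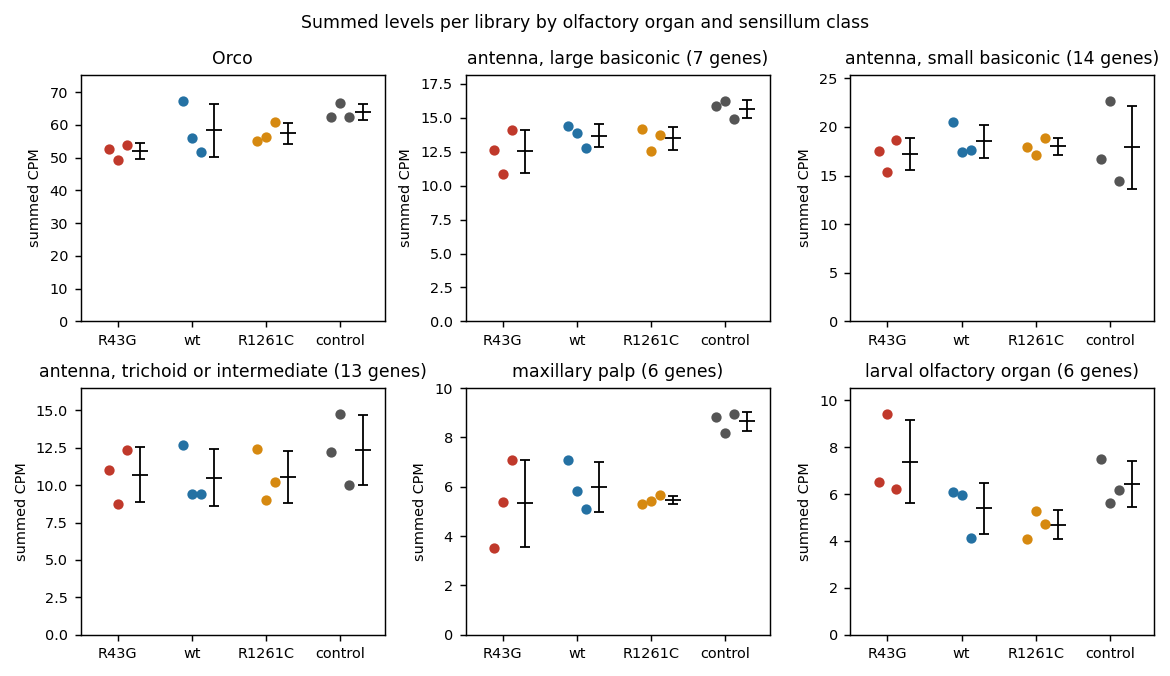
Summed level in CPM (vertical, from 0) of Orco and of the receptors of 5 classes in each library (coloured points) of mTET2-R43G, mTET2-wt, mTET2-R1261C and control, with the mean and SD of each group (black, n = 3). For the maxillary palp, the mTET2 libraries lie at 3.51 to 7.08 CPM and the control libraries at 8.19 to 8.94 CPM, and for the large basiconic class they lie at 10.9 to 14.4 CPM and at 14.9 to 16.2 CPM, while the other 3 receptor classes overlap.

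Other members with the smallest p-values against control did not pass the adjustment. Or98a, a receptor of small basiconic sensilla, had 0.484, 0.501 and 0.583 CPM in mTET2-R43G, 1.10, 0.469 and 0.726 in mTET2-wt and 0.918, 0.722 and 0.732 in mTET2-R1261C, against 1.30, 1.39 and 0.980 in control. Its log2 fold change in mTET2-R43G was -1.22 (SE 0.35, adjusted p = 0.0698), and the mTET2-R43G libraries did not overlap control. Or98a lies inside CG34353 on the opposite strand, which had a log2 fold change of 0.47 in the same comparison (adjusted p = 0.0646). Or67c, the receptor of the neighbouring neuron, was at 0.481 ± 0.155 CPM in mTET2-R43G, 0.575 ± 0.106 in mTET2-wt and 0.549 ± 0.381 in mTET2-R1261C, against 0.661 ± 0.203 in control.

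Or42b, a receptor for vinegar odours, had 1.21, 2.17 and 1.94 CPM in mTET2-R43G, 1.04, 1.25 and 1.5 in mTET2-wt and 1.11, 1.62 and 1.83 in mTET2-R1261C, against 1.77, 2.22 and 2.65 in control. In mTET2-wt its log2 fold change was -0.80 (SE 0.29, adjusted p = 0.210). Or92a, which is made in the same sensillum, was at 3.39 ± 0.982 CPM in mTET2-R43G, 4.02 ± 0.515 in mTET2-wt and 3.59 ± 0.829 in mTET2-R1261C, against 3.32 ± 0.780 in control, so that the Or42b values were not shared by its neighbour.

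Or45b, placed here in the larval class, had 1.33, 1.28 and 1.30 CPM in mTET2-R43G, 1.22, 1.67 and 1.09 in mTET2-wt and 0.984, 0.903 and 0.784 in mTET2-R1261C, against 1.30, 2.01 and 1.61 in control. The log2 fold change in mTET2-R1261C was -0.88 (SE 0.26, adjusted p = 0.162), without overlap. A gene annotated as antisense to Or45b, asRNA:CR45281, had a log2 fold change of -0.21 there (SE 0.24).

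The least abundant members gave few counts. Or98b had 1 read pair in all 3 mTET2-R1261C libraries together and 11 in control, a ratio of 0.0957 with a 95% counting interval of 0.00222 to 0.658. Or24a had 12 read pairs in mTET2-R43G and 2 in control (ratio 6.45, interval 1.44 to 59.3). Neither passed the test across libraries (adjusted p = 0.251 and 0.123). Or19a had 3 read pairs in mTET2-R43G, 3 in mTET2-wt and 2 in mTET2-R1261C, against 8 in control. Or45a had 7 in mTET2-R43G, 3 in mTET2-wt and 2 in mTET2-R1261C, against 1 in control. Or22c had 12 in mTET2-R43G, 4 in mTET2-wt and 2 in mTET2-R1261C, against 6 in control. These intervals cover counting error only.

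Between the mTET2 groups no member was called. mTET2-R43G against mTET2-wt gave 0 of 49 (0.0804% of all genes called), mTET2-R1261C against mTET2-wt gave 0 (0.145%) and mTET2-R1261C against mTET2-R43G gave 0 (0.0724%), and at an unadjusted p under 0.05 there were 2 members in each. Such a p was found for 9.86% of all genes between mTET2-R43G and mTET2-wt, 6.63% between mTET2-R1261C and mTET2-wt and 13% between mTET2-R1261C and mTET2-R43G. DESeq2 also gave 0 in each, but in the last comparison it left an adjusted p for 1 member. The median log2 fold change over the members was -0.15 for mTET2-R43G over mTET2-wt, -0.13 for mTET2-R1261C over mTET2-wt and -0.10 for mTET2-R1261C over mTET2-R43G, and over all genes it was -0.012, -0.0015 and 0.0031 in these comparisons. With a library left out, the members' medians ranged from -0.25 (without mTET2-wt replicate 3) to -0.047 (without mTET2-wt replicate 1) in the first comparison, from -0.24 to -0.025 with the same libraries left out in the second, and from -0.16 (without mTET2-R1261C replicate 1) to 0.027 (without mTET2-R43G replicate 3) in the last.

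Or13a, the octenol receptor, had the smallest p among them. It was at 1.87, 2.17 and 3.24 CPM in mTET2-R43G, against 1.62, 0.990 and 1.19 in mTET2-wt, with a log2 fold change of 0.93 (SE 0.27, adjusted p = 0.378). In mTET2-R1261C it had 1.77, 1.68 and 1.73 CPM, and in control 2.31, 2.16 and 1.67, so that the mTET2-wt libraries lay lowest of all. Its log2 fold change in mTET2-wt over control was -0.69 (SE 0.27, adjusted p = 0.239).

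Or65c, a trichoid receptor, had 1.09, 0.723 and 1.30 CPM in mTET2-R43G and 0.522, 0.469 and 0.415 in mTET2-wt (log2 fold change 1.13, SE 0.49, adjusted p = 0.495). Its copies in the same neuron did not share this order: Or65a was at 0.964 ± 0.557 CPM in mTET2-R43G and 1.02 ± 0.128 in mTET2-wt, and Or65b was at 0.819 ± 0.0847 CPM in mTET2-R43G and 1.37 ± 0.671 in mTET2-wt.

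For mTET2-R1261C over mTET2-wt, the palp receptor Or85d had a log2 fold change of -1.52 (SE 0.58, adjusted p = 0.630) and Or35a, the coeloconic receptor, one of -0.80 (SE 0.34, adjusted p = 0.706). Or59c, which neighbours Or85d in its sensillum, was at 0.744 ± 0.322 CPM in mTET2-R1261C and 0.926 ± 0.258 in mTET2-wt. For mTET2-R1261C over mTET2-R43G, Or24a had 1 read pair against 12 (ratio 0.0816, counting interval 0.00191 to 0.552, adjusted p = 0.303), and Or19b had a log2 fold change of 1.26 (SE 0.55, adjusted p = 0.375).

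The precision of these comparisons was limited by the counts. For the 48 receptors without Orco, the median half-width of the 95% interval of the log2 fold change was from 0.88 to 0.92 in the 6 comparisons of 2 groups and 0.73 for the mean of the mTET2 groups. A change of 2-fold or more in either direction lay outside the interval for 9 to 14 of the 48 receptors in a comparison of 2 groups and for 19 in the mean, so that for the others the depth left such a change within the interval.

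The members lie on all major chromosome arms, with 8 on 2L, 13 on 2R, 9 on 3L, 13 on 3R and 6 on X. For the mean of the mTET2 groups over control, the median log2 fold change was -0.23 on 2L, -0.39 on 2R, -0.16 on 3L, -0.36 on 3R and 0.01 on X. Values under 0 were found for 6, 10, 7, 11 and 3 of the members on these arms. These values were not set beside those of all genes on each arm, and 2R also carries the transgenes. Or49b and Or59b, the only members with an adjusted p of at most 0.05 in any comparison, both lie on 2R. The part of the linked background in their values was not tested.

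Other genes of the olfactory organs were measured as lists written from general knowledge, and none of them met the rule with a fold change in any comparison against control. Among 3 Ir co-receptors, which serve the second family of olfactory receptors, Ir25a fell. It had 12.1, 11.6 and 12.3 CPM in mTET2-R43G, 15.7, 15.6 and 13.1 in mTET2-wt and 15.1, 12.8 and 15.6 in mTET2-R1261C, against 16.9, 17.8 and 17.1 in control. Its log2 fold change was -0.52 in mTET2-R43G (SE 0.10, adjusted p = 0.0156) and -0.33 for the mean of the groups (SE 0.08, adjusted p = 0.0374). An adjusted p of at most 0.05 was reached by 4.33% of all genes in mTET2-R43G. For the mean it was reached by 277 genes under 0 and 215 above, of 12433. Ir8a and Ir76b did not pass.

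Of 4 other genes listed for the olfactory organs, Snmp1, the membrane protein that pheromone neurons need, fell in mTET2-R43G. It had 38.2, 33.4 and 40.4 CPM there, 46.2, 45.5 and 42.3 in mTET2-wt and 43.8, 45.7 and 42.7 in mTET2-R1261C, against 46.9, 50.0 and 45.5 in control, and its log2 fold change was -0.35 (SE 0.08, adjusted p = 0.0376). Between mTET2-R43G and control, 4.33% of all genes had an adjusted p of at most 0.05. The 2 carbon dioxide receptors Gr21a and Gr63a did not pass.

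Among 12 genes of antennal accessory cells, mostly odorant-binding proteins secreted around the neurons, 11 had a log2 fold change under 0 in mTET2-R43G (51.9% of all genes) and 2 passed at an adjusted p of at most 0.05 (4.33% of all genes). Obp84a fell by 0.65 (SE 0.09, adjusted p = 0.00272), and it also fell in mTET2-wt by 0.43 (adjusted p = 0.0256) and in mTET2-R1261C by 0.50 (adjusted p = 0.0155). Its levels were 23.2, 20.5 and 22.5 CPM in mTET2-R43G, 26.9, 26.1 and 24.1 in mTET2-wt and 21.6, 26.3 and 25.4 in mTET2-R1261C, against 34.1, 35.1 and 34.2 in control. A fall at an adjusted p of at most 0.05 was found for 131 of 12433 genes in mTET2-wt and for 83 in mTET2-R1261C. Obp28a fell in mTET2-R43G by 0.59 (SE 0.15, adjusted p = 0.0474). The 12 genes together ranged from 1163 to 1524 CPM in mTET2-R43G, 1359 to 1620 in mTET2-wt and 1531 to 1711 in mTET2-R1261C, against 1557 to 1855 in control, and their part in the receptor values was not tested.

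Of 12 transcription factors known to act in the choice of Or genes, 2 rose in mTET2-R43G heads and none fell, where 4.33% of all genes had an adjusted p of at most 0.05. acj6, a POU-domain factor of many Or neurons, rose by 0.58 on the log2 scale (SE 0.12, adjusted p = 0.0241), and pdm3, a related factor, by 0.69 (SE 0.14, adjusted p = 0.0190). acj6 had 28.1, 23.1 and 24.2 CPM in mTET2-R43G, 20.1, 20.6 and 17.8 in mTET2-wt and 20.1, 15.4 and 19.6 in mTET2-R1261C, against 18.4, 16.7 and 15.3 in control. Both genes are also active in neurons of the brain, which whole heads contain.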

How the data were processed

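RNA-seq of 12 head libraries (3 per genotype) was used. The authors aligned stranded, ribosomal RNA-depleted read pairs with HISAT2 2.1.0 to the FlyBase genome (dm6) and deposited raw counts per gene from featureCounts (version 1.6.0 in the table's header). Whole gene bodies were counted by strand, and multi-mapping or ambiguous read pairs were left out. All 60 Or genes had identical coordinates in Ensembl 115, the source of symbols and exon lengths. Genes with a summed count under 10 were left out. The main test was that of edgeR 4.0.16 (R 4.3.3, TMM, quasi-likelihood F test) in 1 fit of all 12 libraries with a mean per group, and DESeq2 1.42.0 was an alternative. P-values are two-sided and Benjamini-Hochberg adjusted over 12433 genes in each of 7 comparisons, and calls needed an adjusted p no higher than 0.05 and a log2 fold change of 1 or more in size. SEs are the fold change over the square root of F. The edgeR and DESeq2 steps were tested on simulated data. Only genes with a mean of at least 10 counts were changed there, with a spread smaller than the median spread of the receptors. That test therefore does not measure the power for most receptors, of which 18 members had a mean under 10 counts. Levels are CPM after TMM, per kb of gene body where genes are compared. Counting intervals are exact binomial at 95%.

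The members, organ classes and lists were chosen with earlier results of these data known. Genes named are Orco, members with an adjusted p of at most 0.05 in any comparison, the 5 highest and 5 lowest levels, the 2 smallest p-values in each comparison, receptors of the same sensillum or near-identical copies of these, and up to 4 passing genes of each olfactory list. The other palp receptors were named, and class sums without single genes were added, after values were seen. Figures were drawn with matplotlib 3.10.9.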

Additional observations from a re-analysis of the deposited data

How the results depend on the processing

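Alternatives were DESeq2, RLE size factors, the filterByExpr function of edgeR, no low-count filter, no minimum fold change, only the libraries compared, the replicate number as a block, and each library left out in turn. Adding the replicate block ended the call of Or49b for the mean of the mTET2 groups (log2 fold change 1.22, adjusted p = 0.0761), so that 0 members were called there, and it put Or59b in mTET2-R43G over control at an adjusted p of 0.0746. It changed no other call. The labels do not state whether the replicate numbers pair the libraries. Of 18 same-numbered pairs of deviations, 2 had a correlation over 0.1 (range -0.208 to 0.204), which cannot decide it with so few libraries. The count of members called for the mean of the mTET2 groups was 0 to 1 when a library was left out. In mTET2-R43G against control, 1 member was called with DESeq2 and 1 with no minimum fold change, and 0 to 1 with a library left out. When a library was left out, the median log2 fold change over members was from -0.35 to -0.068 for mTET2-R43G, from -0.31 to -0.079 for mTET2-wt, from -0.38 to -0.27 for mTET2-R1261C and from -0.32 to -0.16 for the mean of the mTET2 groups over control. It was from -0.24 to -0.025 for mTET2-R1261C over mTET2-wt, from -0.25 to -0.047 for mTET2-R43G over mTET2-wt and from -0.16 to 0.027 for mTET2-R1261C over mTET2-R43G. With filterByExpr, which kept 36 members, it was -0.23 for mTET2-R43G over mTET2-wt.

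Values that crossed 0 when a library was left out were all uncalled. Or49b ranged from -0.15 to 0.33 for mTET2-R43G over mTET2-wt and from -0.17 to 0.31 for mTET2-R1261C over mTET2-R43G. For mTET2-R1261C over mTET2-wt, Orco ranged from -0.10 to 0.093 and Or59b from -0.068 to 0.14. Fits with a library left out have less power, so a call lost there need not be a smaller change. Depth limited the receptors, of which 18 of 49 members had a mean under 10 counts per library.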

Other observations

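Single libraries had high values in other sensory genes of the antenna. In replicate 2 of mTET2-R43G the mechanosensory channel gene nompC was at 23.6 CPM, and the other 11 libraries had 7.83 to 12.4 CPM. Replicate 3 of mTET2-R43G had 5.05 CPM of the carbon dioxide receptor gene Gr63a, where the other 11 libraries had 0.61 to 2.23 CPM. Both genes were chosen after their values were seen, and no test was made.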
